A study of Gallus gallus with 8 samples.

Results

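The SoxB genes encode transcription factors of the SOX family that bind DNA through an HMG box and mark progenitor cells of the nervous system. The group asked for here held 5 genes, SOX1, SOX2 and SOX3 of the SoxB1 class and SOX14 and SOX21 of the SoxB2 class. Every probe set whose symbol in the deposited table is 1 of these names was taken, which gave 4 probe sets, 1 each for SOX1, SOX2, SOX3 and SOX14, of 38439 probe sets tested. SOX21 had no probe set under its symbol or under its gene ID and is not analysed here. The deposited table places SOX1 on chromosome 1, SOX3 on chromosome 4 and both SOX2 and SOX14 on chromosome 9, and no genome build is named.

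The arrays measured neural tube cells of white Leghorn chick embryos that had been electroporated at trunk level at Hamburger and Hamilton stages 10 to 11 and collected 24 h later. The electroporation used 2 plasmids. In pBRE-tk-EGFP green fluorescent protein lies behind a BMP-responsive element (BRE), and pCAGGS-IRES-H2B-RFP labels electroporated cells red. In BRE_active samples the cells were RFP+/GFP+, so the reporter of bone morphogenetic protein (BMP) signalling was on. In BRE_inactive samples the cells were RFP+/GFP- and came from the same embryos. Whether each of these cells held the reporter plasmid was not tested. Each group had 4 arrays, 1 from each of 4 pools of nearly 30 embryos, so a value is an average over a pool and over all cells that passed the gate. In such bulk samples, fewer cells of a type and less RNA per cell cannot be told apart.

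SoxB1 proteins are activators that keep neural tube cells in a progenitor state, and in chick their loss goes along with exit into neuron differentiation. SoxB2 proteins are repressors that act on the same kind of DNA site, and in chick SOX21 promotes neuron formation. The neural crest arises from the dorsal edge of the neural tube, where BMP signalling is high, and SOX2 is switched off in chick cells as they become crest. The comparison asks how far these genes differ between fractions sorted with the BMP reporter on and off.

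The labelled cell type was checked first. All 7 neuroepithelium markers (SOX1, SOX2, SOX3, CDH2, NES, PAX6 and VIM) were measured, and 6 were called present on all 8 arrays. The exception was SOX1, which was absent on BRE_active 4. SOX1, SOX2 and SOX3 are the genes under study, so this check is not independent of them. The mean log2 level of the 7 markers was 8.63 to 8.97 on the BRE_active arrays and 9.15 to 9.83 on the BRE_inactive arrays. In each of the 4 pools this mean was lower in BRE_active cells. Genes of other cells were also seen. The 9 measured red blood cell genes had a mean log2 level of 6.84 to 9.49 on the BRE_active arrays and of 10.65 to 12.24 on the BRE_inactive arrays, with 6 present on all arrays, and the groups did not overlap. The mean 3-prime minus 5-prime signal of 3 control genes was 2.41 to 3.24 in BRE_active and 2.21 to 2.85 in BRE_inactive samples on the log2 scale, and in each of the 4 pools the BRE_active value was the higher.

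SOX3 was the SoxB gene that fell. It is the SoxB1 member that is on earliest in the chick neural plate. Its log2 level was 9.24, 9.51, 9.10 and 9.44 on BRE_active arrays 1 to 4, against 10.39, 10.54, 10.21 and 10.49 on BRE_inactive arrays 1 to 4. The groups were 0.71 apart at their nearest arrays, and pool 3 was the lowest in both. The mean was 9.32 ± 0.19 in BRE_active and 10.41 ± 0.14 in BRE_inactive cells (SD, n = 4 each). The log2 difference, BRE_active minus BRE_inactive, was -1.09 ± 0.11 (SE), with a limma adjusted p of 0.0027 over all probe sets. On the linear scale the signal was 47.1% of that in BRE_inactive cells, with a 95% interval of 39.4% to 56.2%.

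The pools gave nearly the same size of difference for SOX3, -1.15, -1.03, -1.11 and -1.05 in pools 1 to 4. By its p, SOX3 ranked 46th among the 38439 probe sets, while by the size of its decrease it ranked 129th. The red blood cell genes differed by -5.40 on average in pool 1 and by -1.84 in pool 4, the pools in which SOX3 differed by -1.15 and -1.05 and SOX1 by -0.12 and -1.28. The part of red cells in these differences was not tested.

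SOX1, another SoxB1 activator and one that in chick appears later than SOX2 and SOX3, was lower in BRE_active cells in every pool but did not pass the threshold in the fit on group alone. It passed with the pool added as a block, and also when BRE_inactive 1 was left out. Its level was low: 3.86, 3.83, 3.72 and 3.40 on BRE_active arrays 1 to 4, against 3.98, 5.0, 4.50 and 4.68 on BRE_inactive arrays 1 to 4. The groups did not overlap, though they were only 0.12 apart, because BRE_inactive 1 was close to the BRE_active arrays. SOX1 was called present on 3 of 4 BRE_active arrays and on 4 of 4 BRE_inactive arrays. The means were 3.70 ± 0.21 in BRE_active and 4.54 ± 0.42 in BRE_inactive cells (SD, n = 4 each). The log2 difference was -0.84 ± 0.20 (SE), with a limma adjusted p of 0.0886, or 0.0326 with the block. Without BRE_inactive 1 it was -1.02, with an adjusted p of 0.028. The array medians were 4.24 to 4.32, so the SOX1 signal lay below the middle of each BRE_active array and on either side of it on the BRE_inactive arrays.

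The pools disagreed more on SOX1 than on SOX3. The SOX1 difference was -0.12 in pool 1, -1.17 in pool 2, -0.78 in pool 3 and -1.28 in pool 4. Pool 1 was thus the smallest for SOX1, whereas it had the largest decrease of SOX3.

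SOX2, the SoxB1 gene most widely used to mark neural stem and progenitor cells, was not called. It stood at 6.15, 6.05, 6.06 and 6.36 on BRE_active arrays 1 to 4, against 6.15, 7.19, 6.33 and 6.49 on BRE_inactive arrays 1 to 4. The groups overlapped, and BRE_inactive 2 was well above all the rest. The mean was 6.16 ± 0.14 in BRE_active and 6.54 ± 0.46 in BRE_inactive cells (SD, n = 4 each). The log2 difference was -0.38 ± 0.20 (SE, limma adjusted p = 0.432, or 0.268 with the block), and its 95% interval ran from -0.83 to 0.06. The signal was 76.7% of that in BRE_inactive cells, with an interval of 56.2% to 104.0%, so a decrease like that of SOX3 lay outside the interval and no decrease lay inside it.

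Most of the SOX2 difference came from pool 2. By pool it was 0.01, -1.14, -0.27 and -0.13, so SOX2 differed in pool 2 by about as much as SOX3 and SOX1 did, and hardly at all in pools 1 and 4. Without BRE_inactive 2 the SOX2 difference was -0.17 (adjusted p = 0.536), and without pool 2 it was -0.13 (adjusted p = 0.748).

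SOX14, the SoxB2 repressor with a probe set, was called absent on all 8 arrays. It is known from small groups of interneurons of the ventral spinal cord and brain. Its signal was 4.61, 4.52, 4.44 and 4.58 on BRE_active arrays 1 to 4, against 4.73, 4.65, 4.45 and 4.68 on BRE_inactive arrays 1 to 4. These values were near the array medians and had no present call, so no fold is given (limma adjusted p = 0.682).

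**Figure D1:**
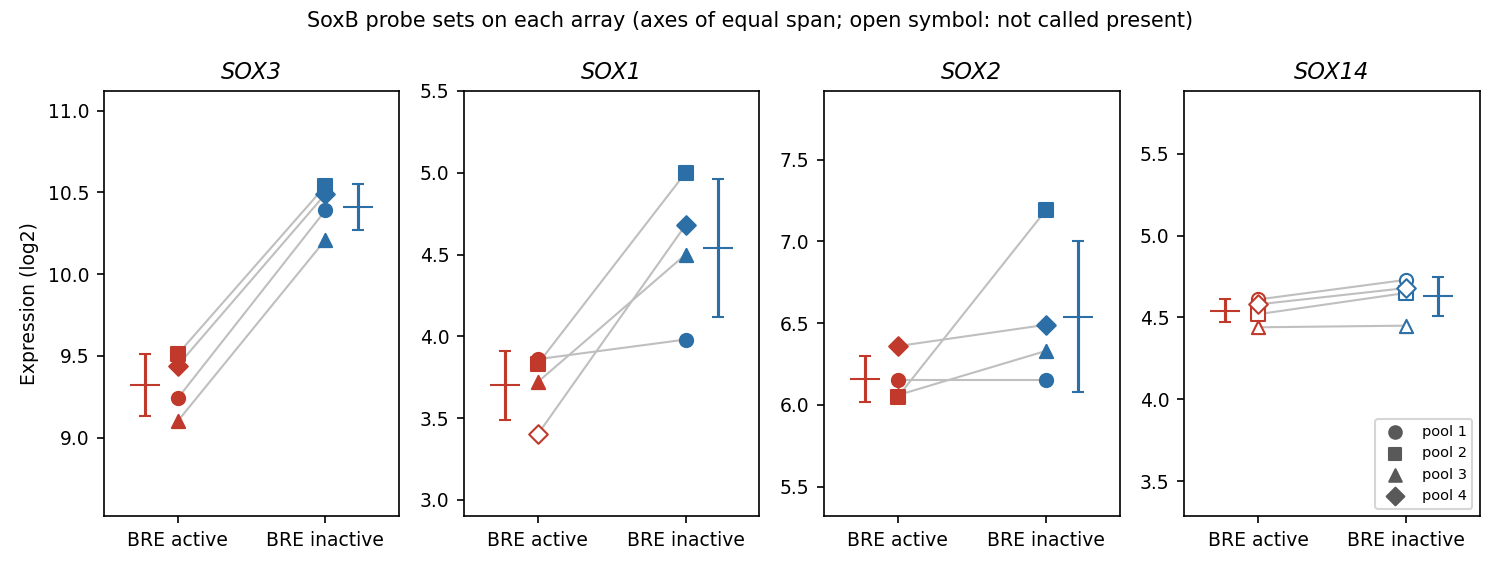
Log2 expression of the 4 SoxB probe sets on each array, BRE active to the left of BRE inactive, with 1 symbol per pool, grey lines joining the samples of a pool, and the mean ± SD (n = 4) beside the points. SOX3 is lower in BRE active cells by a like amount in all 4 pools, SOX1 by an amount that varies among pools, SOX2 mainly in pool 2, and SOX14 has no present call.

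Of the 4 SoxB probe sets, 1 was called lower (SOX3) and 0 higher. Of all probe sets tested, 0.364% were called lower and 0.981% higher. With the block 2 of these 4 were lower (SOX3, with an adjusted p of 0.000387, and SOX1), against 1.64% of all probe sets lower and 3.97% higher. For 2 of the 4, SOX3 and SOX1, every BRE_active array lay below every BRE_inactive array, which held for 3.39% of all probe sets. SOX3, SOX1 and SOX14, but not SOX2, were lower in all 4 pools, against 14.5% of all probe sets. SOX14 had no present call, and the share of all probe sets likewise takes in those without one. With so few members these counts describe the single genes and not a class.

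**Figure D2:**
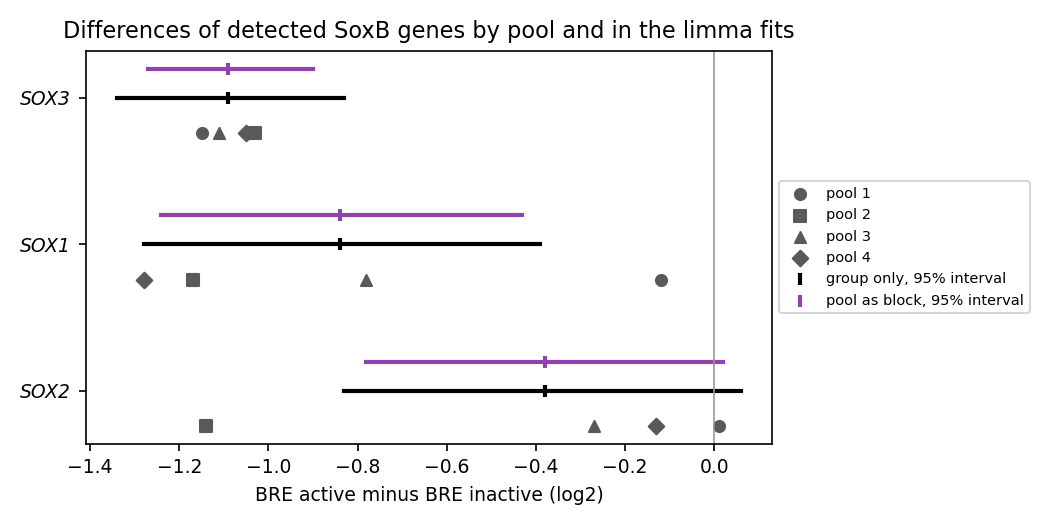
Log2 difference, BRE active minus BRE inactive, for the 3 detected SoxB genes: grey symbols are the 4 pools, and bars are 95% intervals of the limma fit on group alone (black) and with the pool as a block (purple). The SOX3 pools lie together between -1.15 and -1.03, while those of SOX1 run from -1.28 to -0.12 and those of SOX2 from -1.14 to 0.01.

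Whether the SoxB1 genes differed from each other in their response was tested on the difference of their log2 values within each array, for the 3 pairs of detected members. The decrease of SOX3 exceeded that of SOX2 by 0.70 on the log2 scale, by 1.16, 0.85 and 0.91 in pools 1, 3 and 4 and by -0.11 in pool 2. The exact two-sided permutation p was 0.0571, or 0.0857 adjusted over the 3 pairs (n = 4 per group). SOX1 minus SOX2 was -0.13, -0.03, -0.51 and -1.15 in pools 1 to 4, or -0.45 on average, so its size varied much among pools. Without pool 4 it was -0.22, and SOX1 was called absent on BRE_active 4. For SOX1 minus SOX2 the exact permutation p of 0.0286 was the smallest that 4 arrays against 4 allow, and adjusted over the pairs it was 0.0857. SOX1 minus SOX3 was 0.25 (exact permutation p = 0.4, adjusted p = 0.4) and had both signs among the pools. No pair passed the threshold after adjustment, and the design fixed this for a lone pair, since the smallest p of 0.0286 becomes 0.0857 when no other of the 3 pairs comes as low.

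The SoxB1 genes also varied together in part among the BRE_inactive arrays. Across the 8 arrays the Pearson correlation was 0.82 for SOX1 with SOX3, 0.76 for SOX1 with SOX2 and 0.63 for SOX2 with SOX3, which takes in the difference between the groups. With group means removed it was 0.17, 0.65 and 0.46 for the same pairs, and over the 4 BRE_inactive arrays alone 0.48, 0.89 and 0.66. On the BRE_active arrays SOX1 and SOX2 did not run together. BRE_active 4 had the lowest SOX1 value of its group (3.40) and the highest SOX2 value (6.36). SOX1 and SOX2 were both highest on BRE_inactive 2 and had their lowest BRE_inactive value on array 1. These are descriptions over 8 arrays that share pools of embryos.

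Leaving out pools or arrays moved SOX3 little. Over the 4 fits without 1 pool and the 8 without 1 array its difference ranged from -1.15 to -1.01. Its adjusted p was at most 0.05, a rounded value still under the threshold, reached without pool 1. SOX1 ranged from -1.08 to -0.68 and SOX2 from -0.51 to -0.13 over the same fits.

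**Figure D3:**
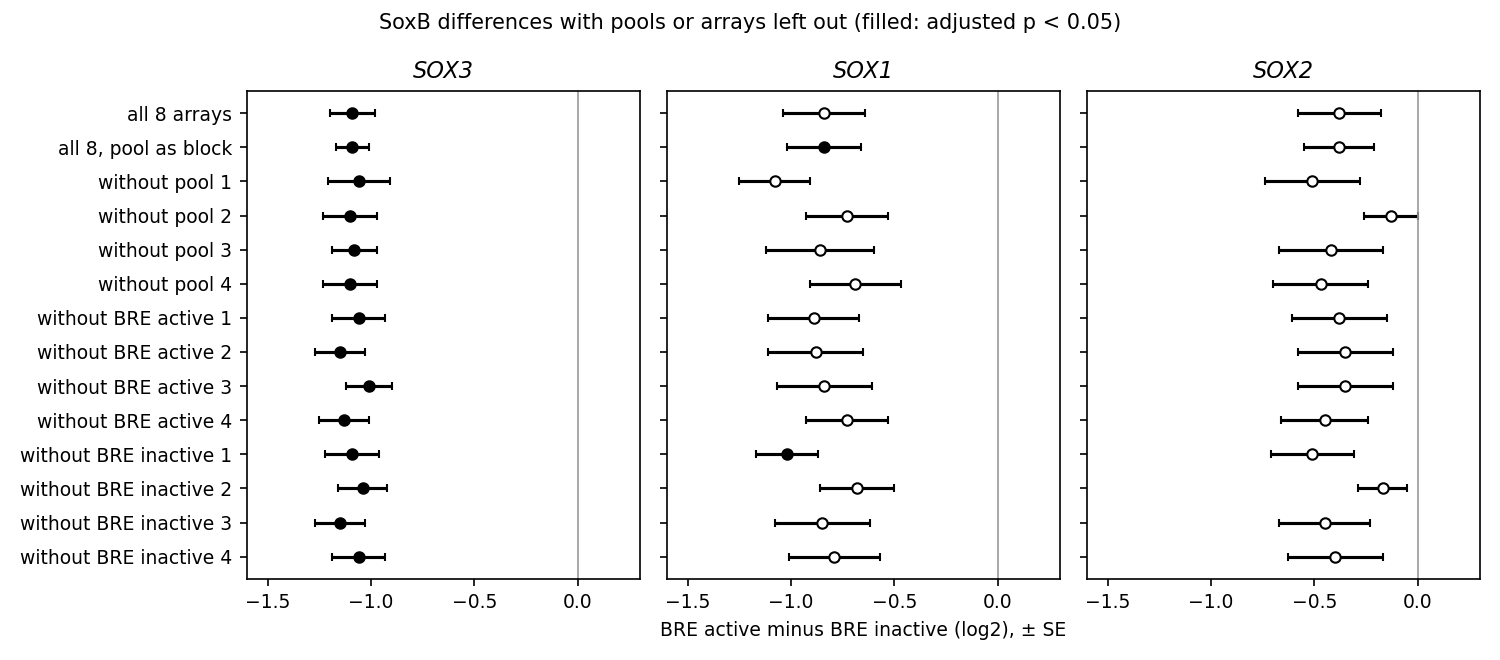
Log2 difference ± SE, BRE active minus BRE inactive, of SOX3, SOX1 and SOX2 in the limma fit on all arrays, with the pool as a block, and without each pool or array; filled symbols passed an adjusted p of 0.05. SOX3 passed in all 14 fits, SOX1 with the block and without BRE inactive 1, and SOX2 in none.

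Of 30 other progenitor genes measured, 2 were called in the fit on group alone and 11 with the block. The list held 35 genes of neural progenitors, of which 30 were measured and 21 were present on all 4 arrays of at least 1 group. Of the 30, 2 fell, 0 rose and 28 were not called, against 0.657% of all 13249 genes lower and 1.55% higher. The median log2 difference of the 30 was 0.00, beside -0.02 over all genes, and 15 had a negative and 15 a positive difference. Among the 21 detected genes the median was -0.12, beside 0.03 over all detected genes. Of these 21, 12 had a negative and 9 a positive difference. With the block 5 of the 30 fell and 6 rose, against 2.55% and 4.91% of all genes.

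The progenitor genes that fell were PAX6 and PTPRZ1. PAX6, a paired-box factor of intermediate progenitors that is known from chick lens as a partner of SOX2, had log2 levels of 9.47, 9.24, 9.57 and 8.95 in BRE_active cells, against 10.29, 10.88, 10.61 and 9.90 in BRE_inactive cells. The groups did not overlap, and pool 4 was the lowest in both. Its difference was -1.11 ± 0.21 (limma adjusted p = 0.0349), close in size to that of SOX3. PTPRZ1, a receptor tyrosine phosphatase of radial glia and progenitors, differed by -0.87 ± 0.14 (adjusted p = 0.0199), with no overlap, while its other detected probe set gave -0.56 ± 0.25 (adjusted p = 0.36). Both calls were lost (0 of 30 called) without pool 1, 2 or 3 or without BRE_active 1 or 3 or BRE_inactive 2 or 3. 1 call was left without BRE_active 2, BRE_inactive 1 or BRE_inactive 4. Without pool 4 the calls were 3 lower and 3 higher, and without BRE_active 4 they were 3 lower and 2 higher. The count over all probe sets shifted likewise, from 517 to 104, 112, 77 and 1269 without pools 1 to 4.

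The next progenitor genes by p pointed both ways. GPM6A, a neuronal membrane glycoprotein gene, differed by -0.87 ± 0.20 (adjusted p = 0.0738, or 0.00985 with the block), and its dimmer probe set by -0.88 ± 0.14 (adjusted p = 0.0183). ZIC1, a zinc finger gene of the dorsal neural tube, differed by 0.81 ± 0.19 (adjusted p = 0.0894, or 0.00438 with the block), and it is also on the neural crest list below. The structural markers that accompany SOX2 in neuroepithelium were closer to zero: NES (nestin) differed by -0.21 ± 0.26, VIM (vimentin) by -0.11 ± 0.08 and CDH2 (N-cadherin) by -0.12 ± 0.30, with adjusted p = 0.757, 0.572 and 0.896. The 4 POU3F genes of the list, whose proteins pair with SoxB1 proteins on DNA, had no probe set under their symbols.

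Some genes that progenitors switch on as they leave the SoxB1 state were lower too. Of 32 proneural and neuron genes 23 were measured, 6 fell, 0 rose and 17 were not called, against 0.657% of all genes lower and 1.55% higher. Their median log2 difference was -0.35, beside -0.02 over all genes, or -0.6 beside 0.03 among detected genes. With the block 10 fell and 0 rose, against 2.55% and 4.91% of all genes. TAGLN3, an actin-binding protein gene of neurons, differed by -1.47 ± 0.20 (limma adjusted p = 0.00843). STMN2, a microtubule regulator gene, differed by -1.19 ± 0.17 (adjusted p = 0.00981). HES6, a gene that promotes neuron differentiation, differed by -1.06 ± 0.18 (adjusted p = 0.0206) and NEFM, a neurofilament gene, by -1.02 ± 0.19 (adjusted p = 0.0339). A second detected NEFM probe set gave -0.57 ± 0.23 (adjusted p = 0.316).

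The count of 6 neuron genes depended on the pools, as did the count over all probe sets. The latter fell from 517 to 104, 112 and 77 without pools 1, 2 and 3. Over the alternatives run, TAGLN3 differed by -1.61 to -1.36, STMN2 by -1.32 to -1.07, HES6 by -1.22 to -0.93 and NEFM by -1.13 to -0.89. The neuron counts were as follows. It was 0 without pool 1 or 3 and 1 without pool 2. It was 2 without BRE_active 1, 2 or 3 or BRE_inactive 3, and 3 without BRE_inactive 2. Without pool 4, 5 were lower and 1 higher, and without BRE_active 4, 8 were lower and 1 higher. SOX3 thus fell on the same arrays as some progenitor and some neuron genes, and whether their differences are unlike in size was not tested.

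The genes of V2 interneurons, a ventral class in which SOX14 is known from mouse, were mostly undetected. Of 8 genes 7 were measured and 2 were present on all arrays of a group. Limma called 0 of the 7, against 0.657% of all genes lower and 1.55% higher. With the block 1 was lower, against 2.55% of all genes. At an unadjusted p under 0.05 there were 2, and the share of all genes at that level was not counted. Of all 38439 probe sets, 5294 had an unadjusted limma p of 0.0493 or less, so such values were common. TAL1 differed by -0.49 ± 0.11 (adjusted p = 0.0834), and it is also a red blood cell gene. BHLHE22 differed by -1.25 ± 0.34 (adjusted p = 0.141, or 0.00201 with the block). LHX3 and GATA3 had no present call on any array. Like SOX14, most of these interneuron factors gave little signal in either fraction.

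**Figure D4:**
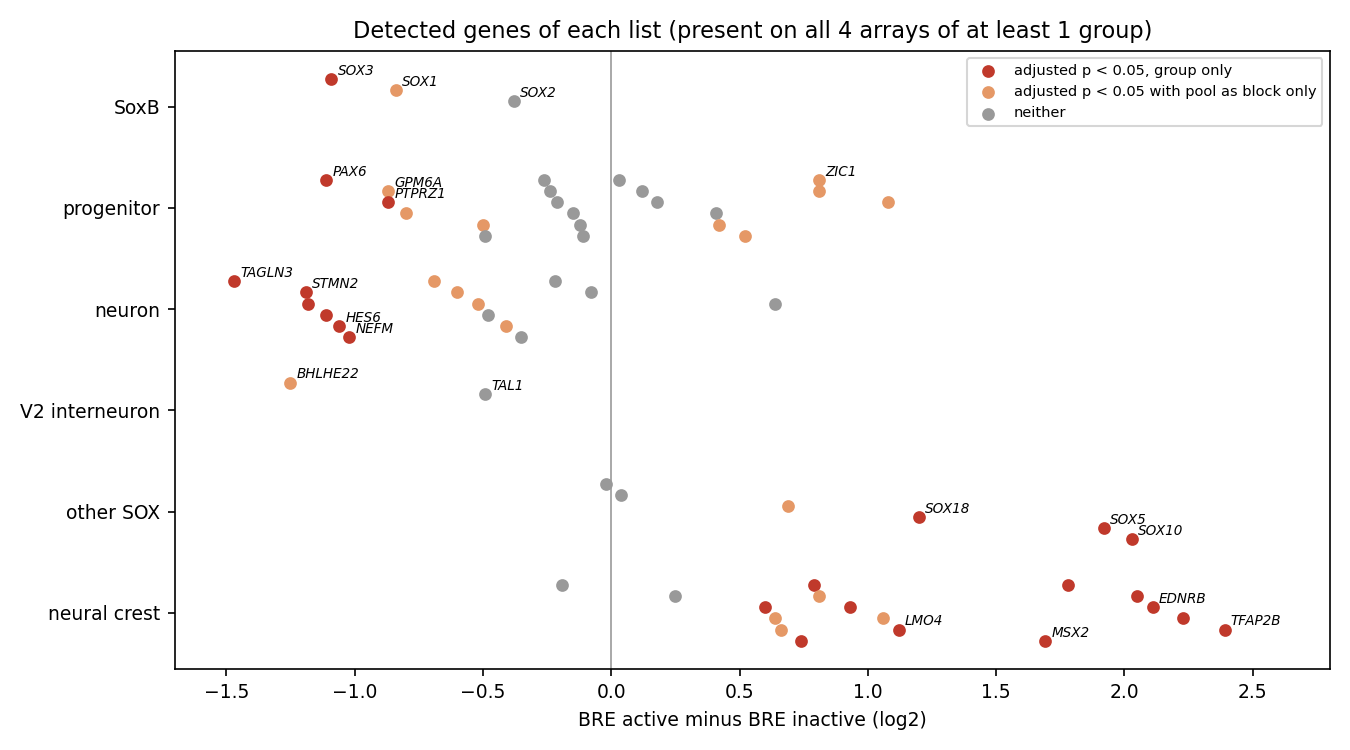
Log2 difference, BRE active minus BRE inactive, of each detected gene of the SoxB group and of 5 lists; red points passed an adjusted p of 0.05 in the fit on group alone, orange points only with the pool as a block. The SoxB points lie among the negative progenitor and neuron genes, while SOX5, SOX10 and SOX18 lie with the neural crest genes on the positive side.

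The other SOX genes were compared in the same way. SOX4 and SOX11, SoxC activators that follow SoxB1 proteins in differentiating neurons, were present on all arrays and were not called. SOX4 differed by 0.04 ± 0.20, with a 95% interval of -0.40 to 0.48, and SOX11 by -0.02 ± 0.28, with an interval of -0.64 to 0.60, so a decrease of the size of SOX3 lay outside both, though their difference from SOX3 was not tested. SOX10, a SoxE factor of the neural crest, had 11.73, 11.36, 11.51 and 11.02 in BRE_active cells, against 9.55, 9.55, 9.80 and 8.60 in BRE_inactive cells. It rose by 2.03 ± 0.25 (limma adjusted p = 0.00542), on the arrays on which SOX3 fell. The dimmer SOX10 probe set gave 1.53 ± 0.22 (limma adjusted p = 0.0116).

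SOX5, a SoxD gene of crest and glia, rose by 1.92 ± 0.31 (adjusted p = 0.0169). Its other detected probe sets gave 1.29 ± 0.16 (adjusted p = 0.00624) and 0.76 ± 0.11 (adjusted p = 0.0103), and one without a present call gave -0.04. SOX18, a SoxF gene known from endothelium, rose by 1.20 ± 0.21 (adjusted p = 0.0266). Beside SOX18, the endothelial receptor gene KDR differed by 0.82 ± 0.25 with no overlap (adjusted p = 0.2, or 0.0339 with the block). The endothelial adhesion gene PECAM1 differed by 0.98 ± 0.37 (adjusted p = 0.287, or 0.108 with the block), but by -0.21 in pool 4, where SOX18 differed by 1.00. KDR and PECAM1 were the 2 detected genes of the 7 on the endothelium and white cell list. Of the 7, 6 had a positive and 1 a negative difference (LMO2, -0.41). The part of endothelial cells was not tested. The SoxE gene SOX8 differed by 0.69 ± 0.17 (adjusted p = 0.0969, or 0.0293 with the block). SOX9 was present on 1 BRE_active and 0 BRE_inactive arrays, so no size is given (adjusted p = 0.0834, or 0.00101 with the block). SOX6, SOX13 and SOX30 had no present call, SOX7 and SOX17 had some in both groups, and none of these 5 was called. In all, 3 of 12 measured genes outside SoxB rose, 0 fell and 9 were not called, against 1.55% of all genes higher and 0.657% lower. With the block 5 rose, against 4.91% of all genes. The median log2 difference of the 12 was 0.15, beside -0.02 over all genes, or 0.95 beside 0.03 among detected genes. The calls were 0 without pool 1, 2 or 3 and 1 without BRE_active 1, 2 or 3 or BRE_inactive 1 or 4. The count over all probe sets fell in these fits too, from 517 to as low as 77 without pool 3.

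Many neural crest genes rose on the same arrays. All 21 of the list were measured, 11 rose, 0 fell and 10 were not called, against 1.55% of all genes higher and 0.657% lower. With the block 15 rose and 0 fell, against 4.91% and 2.55% of all genes. Their median log2 difference was 0.79, beside -0.02 over all genes, or 0.93 beside 0.03 among detected genes. The fractions were sorted on a BMP reporter, and the list was not freed of BMP targets such as MSX2. The count therefore does not measure crest cells alone. The smallest p belonged to MSX2, a homeobox target of BMP (1.69 ± 0.15, limma adjusted p = 0.0012), EDNRB, an endothelin receptor gene (2.11 ± 0.22, adjusted p = 0.00229), LMO4, a LIM-only cofactor gene (1.12 ± 0.13, adjusted p = 0.00406), and TFAP2B, a crest transcription factor gene (2.39 ± 0.35, adjusted p = 0.0115). The count fell to 2 without pool 1 or 2, 3 without pool 3, 6 without BRE_active 1 and 5 without BRE_active 2 or 3. Over all probe sets the calls also fell, from 517 to 104, 112 and 77 without pools 1, 2 and 3. SOX3 stayed past the threshold in each of those fits, as did MSX2 and EDNRB of this list.

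Some genes had a profile over the 8 arrays much like that of a SoxB gene, among 6414 detected and named genes. The closest to SOX3 were SLC16A3, a lactate transporter gene (Pearson r = 0.99), OLIG2, a factor of motor neuron progenitors (r = 0.985), and CKB, the brain creatine kinase gene (r = 0.981). OLIG2 had 6.89, 7.27, 6.89 and 7.74 in BRE_active cells, against 9.09, 9.79, 8.98 and 9.51 in BRE_inactive cells, so its lowest arrays were those of pools 1 and 3, as for SOX3. It fell by 2.14 ± 0.23 on the log2 scale (limma adjusted p = 0.00274). SLC16A3 and CKB fell by 0.60 ± 0.09 and 0.59 ± 0.10 (adjusted p = 0.0141 and 0.0185). All were picked for a profile like that of SOX3 over the 8 arrays, which takes in the difference between the groups. A fall and a like order of arrays were thus built into the choice, and these tests are no separate result.

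With group means removed, so that only the variation among arrays within each group is left, the genes closest to SOX3 were RRM2B (r = 0.939), SLC38A1 (r = 0.92) and BLOC1S2 (r = 0.916). None of these 3 was called in the fit on group alone, and SLC38A1 was called with the block (-0.40, adjusted p = 0.17, or 0.0323 with the block). Those closest to SOX1 over the 8 arrays were SLC7A6 (r = 0.96), NRG4 (r = 0.953) and RASGEF1A (r = 0.95), of which RASGEF1A was called, with a difference of -0.92 ± 0.16 (adjusted p = 0.025), and NRG4 only with the block (-0.46, adjusted p = 0.0684, or 0.0243 with the block). Those closest to SOX2 were SLC7A6OS (r = 0.968), EME1 (r = 0.961) and PLAU (r = 0.953), none of them called. With group means removed they were UBE2D1, SLC25A12 and SGCE for SOX1 (r = 0.956, 0.955 and 0.952) and BRD8, TTC26 and TCF7L1 for SOX2 (r = 0.987, 0.97 and 0.97). The genes nearest to SOX3, SOX1 and SOX2 were thus different ones, and with 8 arrays and 6414 genes some high values of r arise for any profile. For the genes picked over the 8 arrays without removal of group means, the choice itself favoured lower values in BRE_active cells.

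None of the measured genes next to the SoxB genes on the chromosome was called in the fit on group alone. In the RefSeq gene table of assembly GRCg7b, the 3 protein-coding genes on each side of SOX1, SOX2, SOX3 and SOX14 were taken, 24 in all, of which 21 were measured and 12 detected. Limma called 0 of the 21 on group alone, against 0.657% of all genes lower and 1.55% higher. With the block it called 2, against 2.55% lower and 4.91% higher. At an unadjusted p under 0.05 there were 4, and the share of all genes at that level was not counted. An unadjusted limma p of 0.0493 or less was reached by 5294 of all 38439 probe sets. With so few genes these counts do not set the neighbours apart from all genes. The log2 differences of the neighbours ran from -0.53 to 0.41. SLITRK4 and GABRQ, on either side of SOX3, differed by 0.09 ± 0.18 (adjusted p = 0.86) and by -0.24 ± 0.08 with no present call (adjusted p = 0.263). ATP11B and DNAJC19, on either side of SOX2, differed by -0.53 ± 0.17 and 0.19 ± 0.16 (adjusted p = 0.218 and 0.638, or 0.0335 and 0.29 with the block). This choice of neighbours was made after the SoxB values were known.

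Markers of other tissues beside the neural tube were compared on the same arrays. The 9 measured surface ectoderm genes had a mean of 5.47 to 6.14 in BRE_active and 5.89 to 6.31 in BRE_inactive samples, 0 were called by limma (1 at an unadjusted p under 0.05, 0 with the block), and GRHL2 and GATA3 had no present call. The 12 somite and mesoderm genes had a mean of 4.71 to 5.88 in BRE_active and 5.02 to 5.35 in BRE_inactive samples, 0 were called by limma (1 at an unadjusted p under 0.05, 0 with the block), and FOXC1, TBX6, MYF5 and MYOD1 had no present call. The 7 genes of endothelium and white cells averaged 4.63 to 5.32 in BRE_active and 4.44 to 4.83 in BRE_inactive samples, with TIE1 and PTPRC never present. Limma called 0 of these 7 (2 at an unadjusted p under 0.05, KDR and PECAM1) and KDR with the block. The 6 notochord genes averaged 5.90 to 6.09 in BRE_active and 5.97 to 6.07 in BRE_inactive samples, but its members moved apart. FOXA2, also a floor plate gene, was called lower (limma adjusted p = 0.0376). It was present on 1 BRE_active and 3 BRE_inactive arrays, so no size is given. The notochord list had 0 calls without pool 1, 2 or 3, fits in which the count over all probe sets also fell. It had 0 when only detected probe sets were tested. TBXT differed by 0.91 ± 0.25, higher in all 4 pools (adjusted p = 0.142, or 0.000784 with the block). SHH, known from notochord and floor plate, had no present call. Of these lists the red blood cell genes differed most, with 6 of 9 called lower (7 with the block), against 0.657% of all genes lower and 1.55% higher. The part of red cells in the SoxB values was not tested. These shares also stand beside the counts of the other lists above, and with the block they were 2.55% and 4.91%. The share of all genes at an unadjusted p under 0.05 was not counted, but 5294 of all 38439 probe sets had an unadjusted limma p of 0.0493 or less.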

How the data were processed

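Affymetrix arrays were hybridised with biotinylated cRNA, per the labels' protocols, and the authors deposited a log2 value for every probe set on each array. For the background correction, normalization, probe summary and present caller, the sources used here give no method. The authors' deposited log2 difference and adjusted p-value matched a limma test of the 2 groups without other terms on all 38535 probe sets (largest difference in p 6.41e-13), and the series matrix held the same values within 5e-09. The deposited score columns (arrays called present, from 0 to 4, and SDs) and the call letters of each array were used for detection.

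The 2 groups were compared over 38439 probe sets, without 96 control probe sets, by the moderated test of limma (version 3.58.1, R version 4.3.3), with Benjamini-Hochberg adjustment over all of them and a threshold of 0.05. The fit was first tested on simulated data. Gene IDs gave current symbols through RefSeq's GRCg7b table (22925 matches among 26142 IDs), and list genes were sought by current symbol only. The probe set with the highest mean stood for a gene. Pairs of SoxB genes were tested by exact permutation.

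The 2 fractions of a pool came from the same embryos, so the pool numbers pair the arrays. The correlation of paired arrays, after subtraction of group means, was -0.141, 0.203, 0.498 and 0.584 in pools 1 to 4. The fit with the pool as a block is given where it changes the call of a named gene or the count of a list.

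Named were the SoxB genes, up to 4 genes of each list with the smallest p, all other SOX genes and the 3 genes most like each detected SoxB gene. NES, VIM, CDH2, KDR, PECAM1, FOXA2, TBXT and the chromosomal neighbours were named after their values were seen. Members and lists were chosen with earlier results of these data known. The number of arrays limits the precision. Sequences were not used here.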

Additional observations from a re-analysis of the deposited data

Results flagged for a closer look

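In each group of 4 arrays the highest and lowest values were set against the others by Dixon's ratio of gap to range, with a critical value of 0.829, for 112 groups of named genes and marker means. Chance alone gives about 1 in 20 such groups, and 6 of the 112 stood out. None was a SoxB gene. EDNRB was low on BRE_active 4, at 6.84 with the nearest array at 7.37. SOX18 was low on BRE_inactive 4, at 5.58 with the nearest at 5.95. PLAU was low on BRE_active 2 (4.84 beside 4.98), SOX13, which had no present call, was low on BRE_active 3 (3.63 beside 3.89), and BRD8 was high on BRE_active 4 (7.47 beside 7.30). The mean of the somite and mesoderm markers was low on BRE_active 1, at 4.71 with the nearest at 5.77. SOX3 and SOX1 had 9.24 and 3.86 on that array, inside the range of the other BRE_active arrays for SOX3 and the highest for SOX1. Without BRE_active 1 the SOX3 difference was -1.06 (limma adjusted p = 0.0142).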

How the results depend on the processing

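SOX3 kept its direction and its call, and SOX2 kept its direction and stayed uncalled, under every alternative run for them, with differences of -1.15 to -1.01 for SOX3 and -0.51 to -0.13 for SOX2. SOX14, with no present call, was uncalled wherever it was tested and was removed by the filter on detected probe sets. SOX1 ranged from -1.08 to -0.68 over the fits that left out a pool or an array, and was called without BRE_inactive 1 (-1.02) and with the pool as a block (-0.84, adjusted p = 0.0326). With p-values adjusted over genes, an alternative added after seeing the data, SOX3 had 0.00137 and SOX1 0.0576. The pool as a block raised the count over the whole table from 517 to 2156 probe sets, and gave 11 progenitor, 10 neuron, 1 V2 interneuron and 5 other SOX genes. Leaving out a pool or an array gave 77 (without pool 3) to 1419 (without BRE_active 4) probe sets, 0 to 6 progenitor, 0 to 9 neuron, 0 to 2 V2 interneuron, 2 to 14 neural crest and 0 to 4 other SOX genes. Other counts were 104 and 112 probe sets without pools 1 and 2, 1269 without pool 4, 254, 222 and 211 without BRE_active 1, 2 and 3, and 290 and 337 without BRE_inactive 1 and 4. Averaging the probe sets of a gene gave 4 called progenitor genes (2 higher and 2 lower), 6 neuron genes (1 higher and 5 lower) and 1 V2 interneuron gene (lower). The cause of these shifts was not tested. For the pairs of SoxB genes, leaving out a pool gave SOX1 minus SOX2 at -0.59 to -0.22, SOX2 minus SOX3 at 0.55 to 0.97 and SOX1 minus SOX3 at -0.01 to 0.41. Neither 3 arrays against 3 nor sign changes within 4 pools (the replicate block) can reach the threshold. Single probe sets of low signal, SOX1 above all, limit what can be said.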
